A study of Macaca mulatta with 136 samples.

Results

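Chemokines are small secreted proteins that steer the movement and positioning of leukocytes, and chemokine receptors are the membrane proteins that read them. Described here are 9 genes of this system in the rhesus macaque retina and in the underlying retinal pigment epithelium and choroid (RPE/choroid), 5 ligands (CCL2, CCL8, CCL26, CXCL12 and CXCL14) and 4 receptors (CCR1, CCR2, CCR6 and CXCR4). They were taken by gene symbol, each matched a single entry, and they are 9 of the 19422 genes measured. In the files the ligands are ENSMMUG00000000288 (CCL2), ENSMMUG00000009784 (CCL8), ENSMMUG00000015735 (CCL26), ENSMMUG00000012181 (CXCL12) and ENSMMUG00000004771 (CXCL14). The receptors are ENSMMUG00000007506 (CCR1), ENSMMUG00000014276 (CCR2), ENSMMUG00000005676 (CCR6) and ENSMMUG00000011918 (CXCR4). The material came from the right and left eye of 2 adult animals, RM03 and RM04, with no treatment named, whose ages were 13 and 18 years with no statement of which animal had which age. Punches of 2 mm were taken after death at locations labelled Fovea (called fovea/macula here), Perimacular, Nasal and Peripheral (a temporal punch in the protocol), and each was separated into neural retina and RPE/choroid, which gave 4 eyes in each of 8 groups. The right and left eyes of RM03 are called eyes 1 and 2 below, and those of RM04 eyes 3 and 4. With 4 eyes from 2 animals, the p-values measure the spread between these eyes and not between animals at large. CCR1, CCR2, CCR6, CCL8, CCL26, CXCL12 and CXCL14 were named by the study from the same samples as differing by location, so their directions are not independent evidence. The study listed CCR1, CCR2 and CCR6 as lower and CXCL14 as higher at the macula in RPE/choroid. For neural retina it listed CCL8 and CCL26 as lower and CXCL12 as higher there. CCR2 and CCR6 did not pass the test used here in RPE/choroid.

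Most chemokine receptors couple to inhibitory G proteins and draw a cell toward higher ligand concentrations. CCL2 and CCL8 are monocyte attractants of the CC family, with CCR2 as the main receptor of CCL2, whereas CCL8 also binds CCR1. CCL26, also called eotaxin-3, acts on eosinophils through CCR3, and CCL20 is the ligand of CCR6. CXCL12 is made by stromal and vascular cells and binds CXCR4, which signals, and ACKR3, which scavenges it, while the protease DPP4 cuts and inactivates it. CXCL14 is a constitutively made chemokine of epithelia whose receptor is less well settled. In the posterior eye the choroid carries resident macrophages, mast cells and lymphocytes, and the healthy neural retina holds microglia and few other leukocytes.

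The summed sequencing lanes gave between 42448891 and 78574034 estimated counts per library. The fovea/macula, perimacula and nasal libraries shared 2 flow cells, and the periphery libraries ran on 1 flow cell of their own, so the periphery and its flow cell cannot be told apart. The tissue labels held against defining markers, since the 9 rod photoreceptor genes summed to between 4007 and 27960 CPM (counts scaled to a common library total) in retina and to between 50.1 and 924.5 CPM in RPE/choroid. The 5 RPE genes summed to between 2274 and 18150 CPM in RPE/choroid and to between 128 and 1200 CPM in retina. The RPE/choroid periphery library of eye 2 had the lowest RPE sum of that tissue. In bulk tissue, fewer cells of a type and less RNA per cell cannot be told apart.

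In RPE/choroid, CXCL14 and CXCL12 were higher at the fovea/macula than in the periphery, by 11.5-fold and 2.27-fold, and CCL26, CCL8, CCR1 and CCL2 were lower, by between 1.54-fold and 5.73-fold. CCR2, CCR6 and CXCR4 did not pass the test there. In retina, CXCL12 was again higher at the fovea/macula, by 2.49-fold, and CCL26, CCL2, CCL8, CCR1, CXCL14, CCR6 and CXCR4 were lower, by between 1.44-fold and 3.78-fold. CXCL14 thus changed in opposite directions in the tissues. Calls are at an adjusted p under 0.05, from edgeR's quasi-likelihood test with a term for the animal and p-values adjusted by Benjamini-Hochberg across the whole gene table. The ± of a log2 fold change is its SE. Of the 9 genes, 6 were called in RPE/choroid, where 44.1% of all genes tested were called. All 9 were tested there, with a median log2 fold change of -0.63 beside -0.06 over all genes tested. In retina 8 of the 9 passed the filter on low counts and those 8 were called, beside 67.0% of all genes tested, with medians of -1.11 and -0.06. CCR2 was too low in retina to be tested. CCL2 and CCL8 passed that filter in part through the periphery, with 172 and 96 summed counts there against 42 and 23 at the fovea/macula. Their retinal calls as lower at the fovea/macula were therefore partly set by the filter. Counts of markers called between these locations, given below, stand beside the same 44.1% in RPE/choroid and 67.0% in retina. Without the animal term, CCL2, CCL8 and CXCR4 lost their calls in retina (adjusted p 0.0782, 0.0811 and 0.122) and CCL2 and CCL8 in RPE/choroid (adjusted p 0.0689 and 0.0620).

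**Figure D1:**
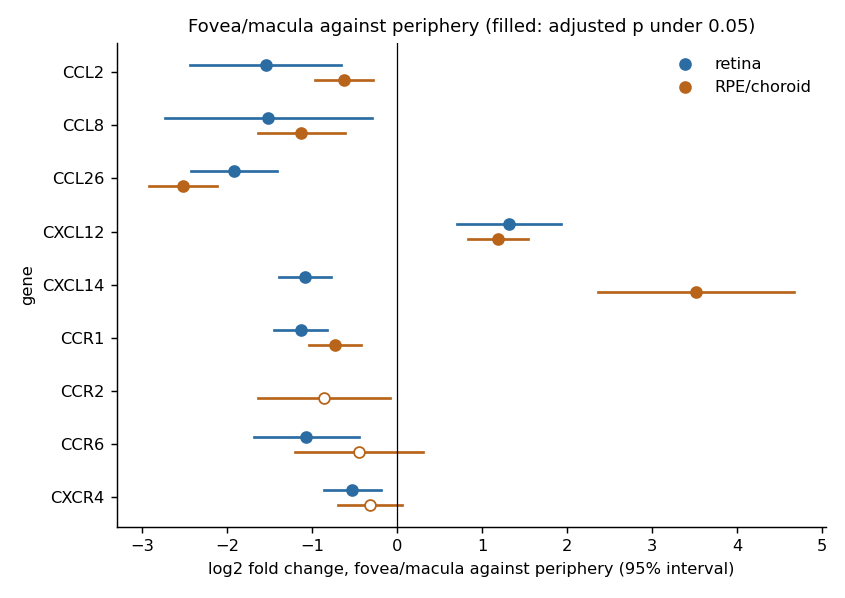
Log2 fold change of each gene between fovea/macula and periphery (x axis, positive values higher at the fovea/macula) with its 95% interval, in retina (blue) and RPE/choroid (orange), filled where the adjusted p was under 0.05. CXCL12 lies right of 0 in both tissues, CXCL14 lies at 3.52 in RPE/choroid and at -1.08 in retina, and the filled points of the other genes lie left of 0.

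CXCL14 had the largest location difference of the 9 genes in RPE/choroid. At the fovea/macula the 4 eyes measured 63.2, 59.5, 105.6 and 104.5 CPM, and in the periphery 11.4, 3.34, 8.83 and 5.79 CPM. The ranges did not overlap, and the log2 fold change was 3.52 ± 0.52, with a 95% interval from 2.37 to 4.67 and an adjusted p of 0.000347. Its fall away from the fovea/macula took a different course in the 2 animals. At the perimacula the eyes of RM03 held 41.8 and 59.3 CPM and those of RM04 12.7 and 23.3 CPM, and at the nasal location RM03 held 51.8 and 75.9 CPM and RM04 20.4 and 14.7 CPM. RM03 therefore had 1.21 times as much CXCL14 at the fovea/macula as at the perimacula and 8.33 times as much as in the periphery. Against the nasal location its ratio was 0.961, with no excess at the fovea/macula. In RM04 the ratios of mean CPM to perimacula, periphery and nasal location were 5.84, 14.4 and 5.99.

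Against the perimacula, foveal CXCL14 exceeded it in 4 of 4 eyes without overlap, at a log2 fold change of 1.37 ± 0.50, but its adjusted p was 0.355. Against the nasal location the value was 1.31 ± 0.53, at an adjusted p of 0.259. The drop from perimacula to periphery was called, at 2.15 ± 0.50 and an adjusted p of 0.00699. Of the pigment epithelium markers, 0 of 5 were called between fovea/macula and periphery in RPE/choroid, with summed levels of 7205 to 16660 CPM and 2274 to 18150 CPM. With so wide a spread, the lack of calls does not show that they stayed level. Of the acute response genes, 8 of 15 were higher and 0 lower at the fovea/macula, with summed levels of 696.5 to 834.3 CPM against 288.8 to 436.5 CPM in the periphery. Their sums at the perimacula (665.5 to 793.2 CPM) and nasal location (645.3 to 795.1 CPM) overlapped with the fovea/macula, whereas CXCL14 in RM04 was lower at both. In retina, where CXCL14 was lower at the fovea/macula, 5 of 13 tested were higher there and 2 lower. The part of either list in the CXCL14 result was not tested.

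In retina CXCL14 took the opposite course. The fovea/macula eyes held 14.05, 14.7, 12.6 and 10.2 CPM, and those of the periphery 27.97, 24.01, 27.1 and 33.2 CPM. Between these lay the perimacula at 25.6, 25.1, 25.5 and 19.2 CPM and the nasal location at 26.9, 27.9, 24.7 and 24.2 CPM. The fovea/macula stood below each other location without overlap, whereas perimacula, nasal and periphery overlapped. The fovea/macula was lower by 1.08 ± 0.14 on the log2 scale against the periphery (adjusted p 2.77e-05), by 0.84 ± 0.14 against the perimacula (adjusted p 0.000945) and by 0.97 ± 0.13 against the nasal location (adjusted p 1.85e-05). The last 2 comparisons lie within shared flow cells. Rod markers moved the same way, with 9 of 9 lower at the retinal fovea/macula and summed levels of 4007 to 4617 CPM against 23900 to 27960 CPM in the periphery, and their part in the result was not tested.

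Whether the location change itself differed between the tissues was tested with an interaction term, for which 43.5% of all genes tested were called. Of the 9 genes CXCL14 was called, and CCR2, which also passed the threshold, is not counted because its retinal change was not measurable. For CXCL14 the change from periphery to fovea/macula was 4.71 ± 0.58 lower on the log2 scale in retina than in RPE/choroid (95% interval -5.90 to -3.52, adjusted p 3.58e-07). At the fovea/macula, RPE/choroid held 6.46 times the mean CPM of retina, and in the periphery retina held more, at 28.1 ± 3.80 CPM (SD, n = 4) against 7.34 ± 3.51 CPM.

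**Figure D2:**
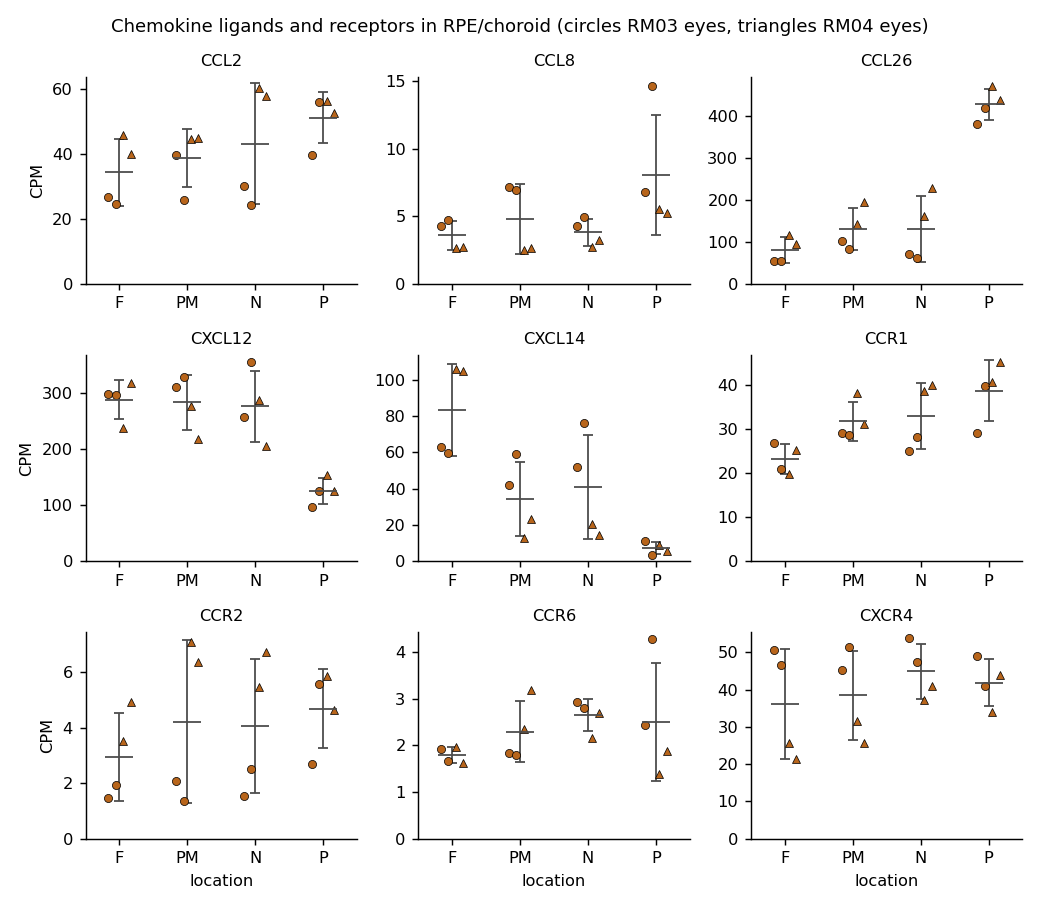
CPM of each gene in RPE/choroid (y axes, each from 0) at the fovea/macula (F), perimacula (PM), nasal location (N) and periphery (P), 1 point per eye, circles for RM03 and triangles for RM04, with the mean and SD of 4 eyes. CCL26 is highest and CXCL12 and CXCL14 are lowest in the periphery, and CXCL14 at PM and N lies higher in the circles than in the triangles.

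CXCL12 was higher at the fovea/macula than in the periphery in both tissues, at very different levels. RPE/choroid eyes held 298, 296, 237 and 317 CPM at the fovea/macula and 96.9, 125, 154 and 124 CPM in the periphery. The perimacula (311, 328, 276 and 217 CPM) and nasal location (256, 355, 286 and 205 CPM) overlapped with the fovea/macula, and each of these locations stood above the periphery without overlap. The log2 fold change between fovea/macula and periphery was 1.19 ± 0.16 (adjusted p 0.000197), and that between perimacula and periphery was 1.15 ± 0.16 (adjusted p 0.000345). Between fovea/macula and perimacula it was 0.03 ± 0.16, with a 95% interval from -0.32 to 0.38. The step in CXCL12 thus fell between the locations that shared flow cells and the periphery.

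Vascular markers moved with CXCL12 in RPE/choroid. All 6 endothelial markers were higher at the fovea/macula, with summed levels of 1670 to 2506 CPM against 984.7 to 1268 CPM in the periphery. Of 5 smooth muscle and pericyte markers tested, 4 were higher, at 5293 to 8244 CPM against 848.5 to 2050 CPM. Their part in the CXCL12 result was not tested.

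Retinal CXCL12 was 3.40, 6.48, 6.72 and 7.93 CPM at the fovea/macula and 2.08, 1.87, 3.08 and 3.21 CPM in the periphery. The ranges did not overlap, and the log2 fold change was 1.32 ± 0.28 (adjusted p 0.00127). The perimacula (3.08, 5.39, 6.85 and 2.91 CPM) and the nasal location (5.24, 5.22, 2.45 and 3.28 CPM) lay between and overlapped with their neighbours. The perimacula was called above the periphery at 0.86 ± 0.28 (adjusted p 0.0232), a call that was lost without eye 2 (adjusted p 0.0981) or eye 3 (adjusted p 0.151). In the test of the tissue difference, the CXCL12 change differed by 0.06 ± 0.38, with a 95% interval from -0.73 to 0.85. Endothelial markers did not show the same direction in retina, where 0 of 6 were higher and 2 lower at the fovea/macula.

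The receptors and the protease of CXCL12 did not follow a single course. CXCR4 in RPE/choroid was 50.7, 46.7, 25.7 and 21.3 CPM at the fovea/macula and 48.9, 40.9, 33.9 and 43.8 CPM in the periphery, with a log2 fold change of -0.32 ± 0.17 (95% interval -0.70 to 0.06, adjusted p 0.157). The RM03 eyes were above the RM04 eyes at each location but the periphery. In retina CXCR4 was lower at the fovea/macula, with 1.56, 1.39, 2.43 and 2.96 CPM against 2.71, 2.11, 3.99 and 3.47 CPM in the periphery. The ranges overlapped, but each of the 4 eyes was lower at its own fovea/macula, and the log2 fold change was -0.53 ± 0.16 (adjusted p 0.009999). This call was lost without eye 1 (adjusted p 0.0992) or eye 3 (adjusted p 0.0644).

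The scavenging receptor ACKR3 rose with CXCL12. In RPE/choroid it was 130.5, 146.6, 171.7 and 133.2 CPM at the fovea/macula and 77.7, 119.9, 70.8 and 49.5 CPM in the periphery, with a log2 fold change of 0.88 ± 0.24 (adjusted p 0.0124). Retinal ACKR3 was 13.7, 12.4, 32.4 and 36.4 CPM against 4.98, 2.80, 5.04 and 3.49 CPM, at 2.41 ± 0.29 (adjusted p 1.49e-05). The location change of ACKR3 was greater in retina than in RPE/choroid by 1.64 ± 0.45 on the log2 scale (adjusted p 0.00403). DPP4 was higher at the retinal fovea/macula, with 35.9, 35.3, 19.8 and 21.04 CPM against 10.0, 7.22, 3.08 and 3.44 CPM and a log2 fold change of 2.38 ± 0.21 (adjusted p 1.12e-06). In RPE/choroid DPP4 did not pass the test, at 0.59 ± 0.30 (adjusted p 0.128), and its change was greater in retina by 1.72 ± 0.34 (adjusted p 0.000224).

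**Figure D3:**
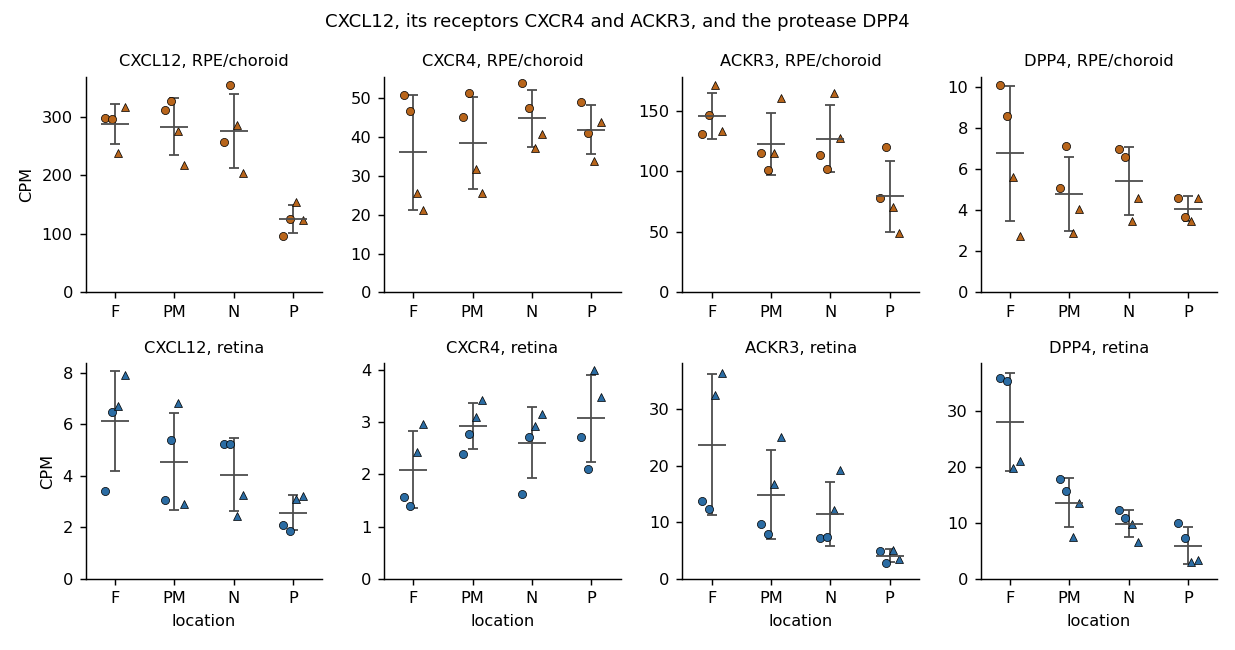
CPM of CXCL12, CXCR4, ACKR3 and DPP4 (y axes, each from 0) by location, in RPE/choroid (top) and retina (bottom), 1 point per eye, circles for RM03 and triangles for RM04, with the mean and SD of 4 eyes. Mean CXCL12 and ACKR3 are lowest in the periphery (P) in both tissues, whereas retinal CXCR4 is lowest at F.

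CCL26 had the largest called difference between fovea/macula and periphery among the CC chemokines of the 9 genes, and it rose toward the periphery in both tissues. RPE/choroid eyes held 54.3, 53.6, 117.1 and 94.0 CPM at the fovea/macula, and 381, 417.5, 471 and 438 CPM in the periphery. The perimacula (101, 81.9, 142 and 195 CPM) and nasal location (71.0, 62.3, 160 and 229 CPM) lay between. The periphery stood above each other location without overlap. Against the periphery, CCL26 was lower by 2.52 ± 0.18 on the log2 scale at the fovea/macula (95% interval -2.92 to -2.12, adjusted p 4.33e-06) and by 1.81 ± 0.18 at the perimacula (adjusted p 3.81e-05). Each of the 4 eyes also had less CCL26 at the fovea/macula than at the perimacula, at -0.71 ± 0.17, but its adjusted p was 0.181. It was 0.0102 with DESeq2 and 0.0330 when only the libraries of these locations were fitted and 0.749 without the animal term. Granulocyte markers in RPE/choroid gave 0 of 5 called between fovea/macula and periphery there, and 1 of 2 mast cell markers was lower at the fovea/macula.

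Retinal CCL26 was far below that in RPE/choroid, at 0.758, 0.575, 0.561 and 0.598 CPM at the fovea/macula and 2.52, 1.54, 2.96 and 2.89 CPM in the periphery. The log2 fold change was -1.92 ± 0.23 (adjusted p 1.55e-05), without overlap. The perimacula and nasal location held between 0.525 and 1.105 CPM. Pigment epithelium markers in retina moved with it, with 4 of 5 lower at the fovea/macula and summed levels of 140.3 to 226.2 CPM against 546.7 to 1200 CPM in the periphery. As a share of RPE/choroid at the same location, retinal CCL26 was 0.781% at the fovea/macula and 0.580% in the periphery, and the median of the 5 markers was 1.18% and 10.2%. Their part in the retinal result was not tested.

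CCR3 and CCL24, given here because they were among the called genes of the family, were also lower at the fovea/macula of RPE/choroid. CCR3, the receptor of CCL26, was 0.125, 0.111, 2.11 and 0.931 CPM at the fovea/macula and 0.625, 1.03, 5.92 and 7.65 CPM in the periphery. Each eye was higher in the periphery, and RM04 had more than RM03 at both places. The log2 fold change was -2.43 ± 0.41 (adjusted p 0.000766). CCL24, or eotaxin-2, was 2.42, 1.74, 0.682 and 1.56 CPM at the fovea/macula against 4.88, 8.25, 2.73 and 2.44 CPM in the periphery, at -1.45 ± 0.31 (adjusted p 0.00305). CCL24 was also lower at the retinal fovea/macula, at -1.13 ± 0.23 (adjusted p 0.000829). CCL11, the remaining eotaxin, which was added after its value was seen, had a value of -4.34 ± 1.86 in RPE/choroid, at an adjusted p of 0.0810.

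CCL2, the main monocyte attractant, was modestly lower at the fovea/macula of RPE/choroid. Its eyes held 26.9, 24.6, 46.0 and 39.9 CPM there and 39.8, 56.0, 56.3 and 52.8 CPM in the periphery. The ranges overlapped, yet each eye was lower at its own fovea/macula, and the log2 fold change was -0.63 ± 0.16 (adjusted p 0.00805). The perimacula held 39.7, 25.9, 44.7 and 44.8 CPM and the nasal location 30.1, 24.4, 60.3 and 58.05 CPM. Fibroblast markers moved with CCL2, with 3 of 5 lower at the fovea/macula and summed levels of 2802 to 3519 CPM against 4791 to 9464 CPM in the periphery, and their part was not tested. The call of CCL2 between perimacula and periphery, at -0.44 ± 0.16, lay at the threshold (adjusted p 0.0497), and it was lost with the eye as a block (0.0795), with RLE scaling (0.0541) and without eye 2 (0.201), eye 3 (0.117) or eye 4 (0.125). Without eye 2 its size was -0.21.

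CCL8 in RPE/choroid was 4.24, 4.74, 2.66 and 2.70 CPM at the fovea/macula and 6.77, 14.7, 5.52 and 5.23 CPM in the periphery. No values overlapped, and the log2 fold change was -1.13 ± 0.23 (adjusted p 0.00258). Between perimacula and periphery it was -0.84 ± 0.23 (adjusted p 0.0154), a call lost without eye 2 (adjusted p 0.0699), eye 3 (adjusted p 0.0998) or eye 4 (adjusted p 0.100). The 14 macrophage and microglia markers were mixed, with 2 higher and 7 lower at the fovea/macula and overlapping summed levels of 1247 to 2824 CPM and 1947 to 2789 CPM. Schwann cell markers were lower at the fovea/macula for 4 of 6, at 269 to 344.9 CPM against 501.2 to 10680 CPM, with the highest sum in the peripheral library of eye 2, which also had the highest CCL8. Their part was not tested.

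Both monocyte attractants were near the limit of detection in retina. CCL2 was 0.102, 0.0349, 0.380 and 0.199 CPM at the fovea/macula and 0.251, 0.174, 1.01 and 0.771 CPM in the periphery, from 2 to 75 estimated counts per library over all locations. Its log2 fold change was -1.55 ± 0.41 (adjusted p 0.00519), and 4 of 4 eyes were lower at the fovea/macula. CCL8 was 0.102, 0.0174, 0.231 and 0.0499 CPM against 0.188, 0.102, 0.433 and 0.498 CPM, from 1 to 42 estimated counts per library. Its value of -1.52 ± 0.56 was called (adjusted p 0.0295), but the call was lost with DESeq2 (adjusted p 0.0541) and without eye 1 (0.0604), eye 2 (0.0668) or eye 4 (0.0942). Other markers in retina were also lower at the fovea/macula, to differing degrees, where 67.0% of all genes tested were called between these locations. Red blood cell markers summed to 4.08 to 8.79 CPM at the fovea/macula and 22.3 to 29.6 CPM in the periphery, with 1 of 3 called lower. Macrophage and microglia markers were lower for 8 of 14 and fibroblast markers for 3 of 5. The fibroblast sums overlapped, at 92.5 to 102.4 CPM at the fovea/macula and 94.85 to 119.2 CPM in the periphery. What part they had was not tested.

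**Figure D4:**
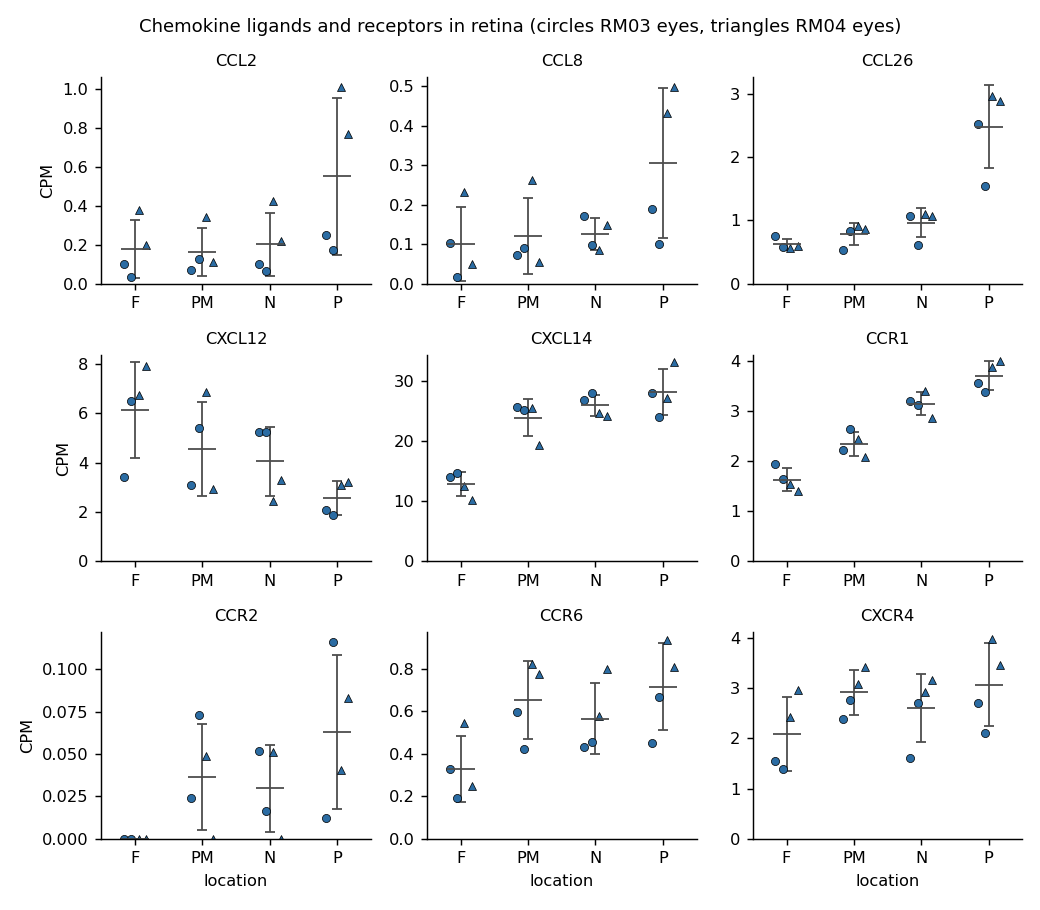
CPM of each gene in retina (y axes, each from 0) at the fovea/macula (F), perimacula (PM), nasal location (N) and periphery (P), 1 point per eye, circles for RM03 and triangles for RM04, with the mean and SD of 4 eyes. CCL26 stands out in the periphery, CXCL14 and CCR1 are lowest at the fovea/macula, and CCR2 is at 0 in all 4 fovea/macula eyes.

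Among the receptors, CCR1 had the most regular gradient. This receptor of CCL8 and other inflammatory CC chemokines is carried by monocytes and macrophages. In retina it was 1.94, 1.64, 1.55 and 1.41 CPM at the fovea/macula, and 3.58, 3.38, 3.89 and 4.01 CPM in the periphery. The perimacular eyes held 2.22, 2.65, 2.44 and 2.08 CPM, and the nasal eyes 3.21, 3.12, 3.42 and 2.86 CPM. Fovea/macula, perimacula and nasal did not overlap, and nasal and periphery did. The log2 fold change of the fovea/macula was -0.47 ± 0.14 against the perimacula (adjusted p 0.0252), -0.91 ± 0.13 against the nasal location (adjusted p 4.90e-05) and -1.14 ± 0.14 against the periphery (adjusted p 2.21e-05). The first of these was lost without eye 2 (adjusted p 0.0799), eye 3 (adjusted p 0.142) or eye 4 (adjusted p 0.0732).

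In RPE/choroid CCR1 was 26.96, 20.85, 19.9 and 25.3 CPM at the fovea/macula and 29.1, 39.9, 40.7 and 45.4 CPM in the periphery. The log2 fold change was -0.74 ± 0.14 (adjusted p 0.00164), with no overlap. The perimacula held 29.2, 28.7, 38.2 and 31.2 CPM, above the fovea/macula in each eye and also without overlap, but at -0.44 ± 0.14 its adjusted p was 0.306. Macrophage and microglia markers in RPE/choroid were mixed, with 2 higher and 7 lower at the fovea/macula. Their sums overlapped, at 1247 to 2824 CPM and 1947 to 2789 CPM in the periphery. In retina 8 of 14 of these markers were lower and 0 higher at the fovea/macula, beside 67.0% of all genes called in either direction. That count alone shows no shared course with CCR1. Their retinal sums were 39.6 to 50.9 CPM at the fovea/macula against 65.9 to 79.2 CPM in the periphery. Mueller glia markers moved with CCR1 in retina, 5 of 5 being lower at the fovea/macula, at 1035 to 1249 CPM against 3753 to 5191 CPM. What part either had in the CCR1 result was not tested.

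CCR2, the CCL2 receptor of inflammatory monocytes, was at or near 0 counts in retina. None of the fovea/macula libraries held a count, and the perimacula, nasal and periphery libraries together had 8, 7 and 19 estimated counts per location. RPE/choroid held 1.45, 1.94, 3.498 and 4.91 CPM at the fovea/macula and 2.69, 5.56, 5.84 and 4.62 CPM in the periphery. Taking 3 counts over the 4 libraries as the limit that a count of 0 allows, retinal CCR2 at the fovea/macula was at least 196-fold lower than in RPE/choroid, a bound that covers counting error only. In RPE/choroid the location difference was -0.86 ± 0.35, with a 95% interval from -1.64 to -0.09 and an adjusted p of 0.0675. It was called with DESeq2 (adjusted p 0.0420) and with the nasal libraries in the fit (adjusted p 0.0432). T cell markers in RPE/choroid were lower at the fovea/macula for 3 of 7, at 94.9 to 120.1 CPM against 160.5 to 254.1 CPM, and their part was not tested. Retinal CCR2 entered the fit of both tissues only through RPE/choroid, and its retinal change between locations, 0 against 19 summed counts, was not measurable.

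CCR6, a receptor of B cells and of some T cells, was low throughout. Retinal values were 0.328, 0.192, 0.545 and 0.249 CPM at the fovea/macula and 0.452, 0.668, 0.933 and 0.806 CPM in the periphery. Each eye was lower at its fovea/macula, with a log2 fold change of -1.07 ± 0.28 (adjusted p 0.00529). Against the perimacula it was -0.93 ± 0.29 (adjusted p 0.0259), which was lost without eye 1 (adjusted p 0.0725), eye 2 (adjusted p 0.0624) or eye 4 (adjusted p 0.0950). In RPE/choroid CCR6 was 1.93, 1.67, 1.96 and 1.63 CPM at the fovea/macula and 2.44, 4.27, 1.38 and 1.87 CPM in the periphery, at -0.45 ± 0.34 (95% interval -1.21 to 0.30, adjusted p 0.310). Its ligand CCL20 was between 0.0665 and 0.325 CPM in retina. In RPE/choroid CCL20 had 1, 16, 0 and 20 estimated counts over the 4 libraries of the fovea/macula, perimacula, nasal location and periphery. B cell markers gave no direction with location, with 0 of 3 called in retina and 1 higher and 1 lower of 4 in RPE/choroid. Of the T cell markers tested in retina, 4 of 6 were lower and 1 higher at the fovea/macula. Their summed levels were 4.26 to 4.61 CPM there against 7.87 to 11.29 CPM in the periphery, and their part was not tested.

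The comparisons among fovea/macula, perimacula and nasal location were free of the flow cell of the periphery. In retina, 4 of 8 tested genes were called between fovea/macula and perimacula, where 35.2% of all genes tested were called. These were CCR1, CCR6, CXCL14 and CXCR4, each lower at the fovea/macula. The CXCR4 value was -0.48 ± 0.16 (adjusted p 0.0327), which became 0.0555 with the eye as a block and was lost without eye 1 (0.134), eye 2 (0.128) or eye 3 (0.0826). Between fovea/macula and nasal location 3 of 8 were called, CCR1, CCR6 and CXCL14, beside 52.2% of all genes. The CCR6 call, at -0.75 ± 0.26 (adjusted p 0.0245), was lost when only these libraries were fitted (adjusted p 0.0607) and without eye 1 (0.0547), eye 2 (0.120) or eye 4 (0.232). CXCL12 did not pass the test in either comparison, at 0.46 ± 0.28 (adjusted p 0.221) and 0.61 ± 0.34 (adjusted p 0.152), though the latter was called without eye 1 (adjusted p 0.0302). CCL26 missed the threshold against the nasal location, at -0.58 ± 0.24 (adjusted p 0.0557), and was called without eye 2 (adjusted p 0.0194).

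In RPE/choroid 0 of 9 were called between fovea/macula and perimacula and 0 of 9 between fovea/macula and nasal location, beside 0.0447% and 0.361% of all genes tested with edgeR. At an unadjusted p under 0.05 there were 3 (CCR1, CCL26 and CXCL14) and 4 (the same and CXCR4). Over all genes tested, 1678 of 15674 and 2449 of 15789 lay under that unadjusted threshold. With DESeq2 1 of the 9 was called in the first of these comparisons, CCL26, where DESeq2 called 314 of 15674 genes in all and edgeR 7. Between perimacula and periphery, 4 of 8 genes were called in retina, where 50.3% of all genes were, and 5 of 9 in RPE/choroid, where 34.9% were. The 5 were CCL2, CCL8 and CCL26, lower at the perimacula, and CXCL12 and CXCL14, higher there. The 4 in retina were CCR1, CCL2 and CCL26, lower at the perimacula, and CXCL12, higher there. The CCL2 difference in retina was -1.62 ± 0.42 (adjusted p 0.00687), and that of CCL26 was -1.64 ± 0.23 (adjusted p 0.000118).

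Of the 9 genes, 8 were lower in retina than in RPE/choroid at each of the 4 locations, and CXCL14 was the exception. At the fovea/macula 9 of 9 were called, beside 75.5% of all genes tested. At the perimacula and nasal location 8 of 9 were called, beside 76.7% and 76.2%, and CXCL14 was not, at -0.44 ± 0.39 (adjusted p 0.304) and -0.56 ± 0.39 (adjusted p 0.199). In the periphery 9 of 9 were called, beside 75.7%, with CXCL14 higher in retina at 1.95 ± 0.40 (adjusted p 0.000107). The counts at all 4 locations include CCR2, which passed the filter only through RPE/choroid. Its calls as lower in retina were therefore largely set by the filter. The median log2 fold change of the 9 genes was between -5.16 and -4.61 at the 4 locations, and the median over all genes tested was between -0.01 and 0.02.

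The gap between the tissues was wide for CCL2, CCL26 and CCR2 and narrow for CXCL14 and CCR6. The mean CPM of CCL2 was between 92.7 and 237 times as high in RPE/choroid as in retina over the 4 locations, and that of CCL26 between 128 and 172 times. CCR2 was 74.1 to 136.5 times as high at the locations where retina held counts. For CXCL12 the range was 46.8 to 68.0 times. CCR1 had 10.4 to 14.2 times and CXCR4 13.2 to 17.3 times the retinal level. For CCR6 the ratio was 3.48 to 5.48. Expressed the other way, retinal CXCL12 was between 1.47% and 2.13% of the level in RPE/choroid at each location, while the median of RPE markers went from 1.18% at the fovea/macula to 10.2% in the periphery.

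**Figure D5:**
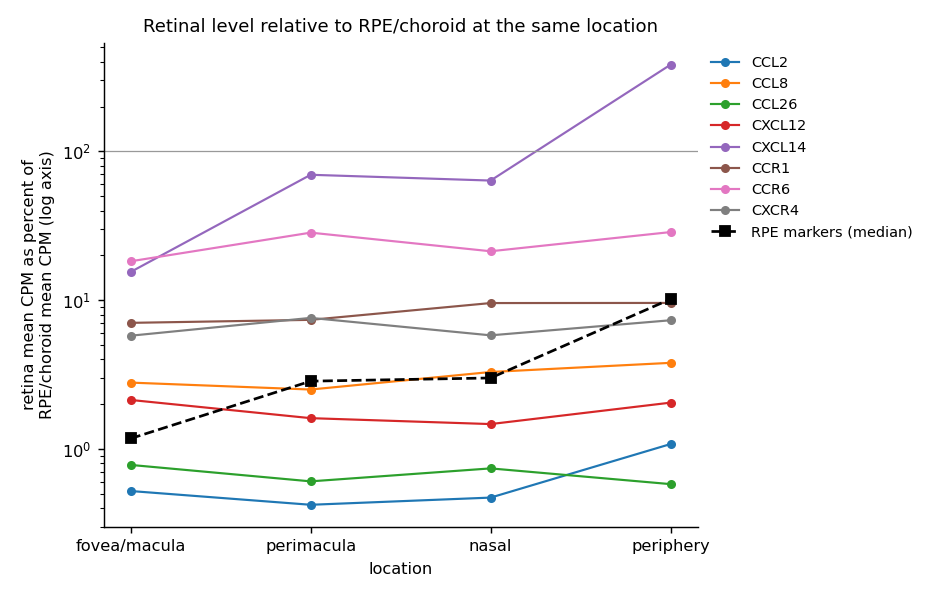
Mean CPM in retina as a percent of mean CPM in RPE/choroid at the same location (y axis, logarithmic, with 100% marked by the grey line), for 8 genes and for the median of the 5 RPE markers (dashed). CXCL14 passes 100% in the periphery, CCL2 and CCL26 stay near or under 1%, and the RPE markers climb from 1.18% to 10.2%; CCR2 is left out because it is at 0 in the retinal fovea/macula.

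The animals differed in several of these genes beyond the difference between fellow eyes. In RPE/choroid, CCL26 was higher in both RM04 eyes than in both RM03 eyes at each of the 4 locations, for example at a mean of 106 against 53.9 CPM at the fovea/macula. CCL8 was higher in RM03 at each of the 4 locations, at 7.03 against 2.54 CPM at the perimacula. CCR2 and CCL2 were higher in RM04 at each location but the periphery. Mean CCR2 at the fovea/macula, perimacula and nasal location was 4.205, 6.72 and 6.08 CPM in RM04 and 1.69, 1.71 and 2.035 CPM in RM03. CXCR4 was higher in RM03 at these 3 locations. Summed macrophage and microglia markers in RPE/choroid were also higher in RM03, at 2562 to 3223 CPM over its 8 libraries against 1247 to 2048 CPM in RM04. With 1 animal on each side, no test of the animals was made.

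The direction between fovea/macula and periphery was the same in both animals for the called genes. CXCL12 in RPE/choroid was 2.67 times as high at the fovea/macula in RM03 and 1.99 times in RM04. CCL26 was 7.40 times as high in the periphery in RM03 and 4.31 times in RM04. CCR1 was 1.44 and 1.90 times as high in the periphery of RPE/choroid and 1.94 and 2.67 times in that of retina.

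Over the 16 RPE/choroid libraries, log2 CPM of CCL26 ran against that of CXCL12 (Pearson r = -0.887) and CXCL14 (r = -0.882), and CXCL12 ran with CXCL14 (r = 0.798). CCL2 ran with CCR2 (r = 0.843) and with CCL26 (r = 0.811). Over the 16 retina libraries, CCR1 ran with CXCL14 (r = 0.906) and CCL26 (r = 0.803). These libraries share locations, eyes and flow cells, so the values are descriptions.

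The genes most like each member over these libraries were named by the highest Pearson r of log2 CPM among genes with a mean of at least 1 CPM, 13847 in RPE/choroid and 13523 in retina. CCL2 in RPE/choroid was most like PRELP (r = 0.944), an extracellular matrix proteoglycan, after LUM (r = 0.955), another such proteoglycan whose symbol has several entries. CCL8 was most like the monocyte receptor CD14 (r = 0.946), and CCR2 was most like the T cell gene CD3E (r = 0.953). CCL26 was most like CAPN6 (r = 0.976) and the myeloid enzyme lysozyme, LYZ (r = 0.955). CXCL12 was most like the Wnt antagonist FRZB (r = 0.957) and LDB2 (r = 0.948), and CXCL14 was most like APP (r = 0.942) and THBS1 (r = 0.924). For CCR1 the first was SLA (r = 0.909), for CXCR4 VNN1 (r = 0.962) and for CCR6 an entry named LOC707966 (r = 0.777). CXCR4 had CCL18, a chemokine of alternatively activated macrophages, among its closest 3 (r = 0.944).

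In retina, CCR1 was most like RLBP1 (r = 0.967), the retinaldehyde binding protein of Mueller glia and RPE. CXCL14 had CFAP77 first (r = 0.959) and PDE6B, the rod phosphodiesterase subunit, among its closest 3 (r = 0.956). CCL26 was most like PPCDC (r = 0.962) and CXCR4 most like VSTM4 (r = 0.906). For CXCL12 the first gene with a single entry was FBXL18 (r = 0.928). CCR2, CCR6, CCL2 and CCL8 were under a mean of 1 CPM in retina.

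The rest of the family gave a mixed picture between fovea/macula and periphery. Of 28 other chemokine ligands measured, 11 were tested in retina, with 2 higher and 5 lower at the fovea/macula, and 22 in RPE/choroid, with 4 higher and 2 lower. These counts stand beside the 67.0% and 44.1% of all genes called in these comparisons. Of 18 other receptors measured, 8 were tested in retina, with 3 higher and 2 lower, and 17 in RPE/choroid, with 2 higher and 2 lower. The medians of the log2 fold changes were -0.54 and 0.36 in retina and -0.19 and -0.48 in RPE/choroid, for ligands and receptors in that order. Of the intracellular signalling genes of chemokine receptors, 11 of 26 tested in retina were higher and 8 lower, and 5 of 27 in RPE/choroid were higher and 6 lower.

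CX3CL1, the membrane-bound chemokine of neurons and endothelium that signals to microglia, was higher at the fovea/macula in both tissues. Retinal CX3CL1 was 124, 140, 189 and 197 CPM at the fovea/macula and 50.2, 32.6, 94.1 and 72.7 CPM in the periphery, at 1.49 ± 0.15 (adjusted p 3.38e-06). In RPE/choroid it was 95.1, 126, 142 and 158 CPM against 68.0, 68.5, 77.5 and 101 CPM, at 0.71 ± 0.11 (adjusted p 0.000425). The difference was greater in retina by 0.70 ± 0.20 (adjusted p 0.00570). Its receptor CX3CR1, a microglial marker, did not pass the test between these locations in retina (-0.36 ± 0.17, adjusted p 0.0769) or RPE/choroid (-0.14 ± 0.44, adjusted p 0.815). Against the nasal location, CX3CR1 was lower at the retinal fovea/macula by 0.75 ± 0.15 (adjusted p 0.000608).

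CXCL16, the ligand of CXCR6, was higher at the retinal fovea/macula by 1.00 ± 0.13 (adjusted p 2.91e-05). The T cell attractant CCL5 was higher at the fovea/macula of RPE/choroid, with 3.33, 2.74, 11.6 and 9.59 CPM against 2.11, 1.81, 4.24 and 3.66 CPM, at 1.01 ± 0.20 (adjusted p 0.00246). The neutrophil attractant CXCL1 was lower there, with 0.770, 1.14, 3.01 and 1.72 CPM against 2.06, 2.42, 5.94 and 3.97 CPM, at -1.16 ± 0.26 (adjusted p 0.00441). The decoy receptor ACKR2 was higher at the fovea/macula of RPE/choroid by 0.82 ± 0.28 (adjusted p 0.0369). In retina ACKR2 was lower at the fovea/macula than at the perimacula by 0.59 ± 0.15 (adjusted p 0.00835), and its location change differed between the tissues by -1.44 ± 0.33 (adjusted p 0.000906).

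Between the tissues, most of the rest of the family was also lower in retina. At the fovea/macula 17 of 25 other ligands and 13 of 17 other receptors were lower in retina and 3 and 1 were higher, beside 75.5% of all genes called in either direction. A gene could pass the filter of this fit through either tissue alone. In the retina fit between fovea/macula and periphery, 11 other ligands and 8 other receptors passed. For genes that passed through RPE/choroid alone, a lower value in retina was largely set by the filter. CCL25 was higher in retina at each of the 4 locations, by 0.53 ± 0.18 at the fovea/macula (adjusted p 0.00883) and 1.19 ± 0.18 in the periphery (adjusted p 1.07e-06). CCL18, a macrophage product, held 26.97, 21.85, 4.29 and 2.75 CPM at the fovea/macula of RPE/choroid and no more than 0.0997 CPM in retina there. The lymphoid chemokine CCL19 held 3.90, 4.03, 21.3 and 17.3 CPM and no more than 0.116 CPM, and CCL13 held 9.24, 10.5, 3.32 and 3.75 CPM and no more than 0.0499 CPM. CCL18 and CCL13 were thus higher in RM03 and CCL19 in RM04 at this location.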

How the data were processed

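Poly-A-selected RNA of 32 libraries was sequenced on 136 lanes. The authors assigned reads to Mmul_8.0.1 transcripts with Salmon 0.13 and deposited, per lane, estimated counts per gene (tximport, length-scaled TPM, labelled TPM but not divided by lane total). Here all lanes belonging to 1 library were added up, sums were rounded, 10 repeated identifiers were dropped, and 19422 genes remained. Depth ranged from 42448891 to 78574034 counts per library.

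Tests used edgeR 4.0.16 (quasi-likelihood, TMM, filterByExpr at a minimum count of 10, R 4.3.3, limma 3.58.1), with a term for the animal and Benjamini-Hochberg adjusted p-values across the gene table. Fovea/macula, perimacula and periphery of a tissue were fitted together (12 libraries), the nasal comparison used 16, and tissue comparisons used all 32. SE is the log2 fold change divided by the root of F. CPM are scaled by TMM, and log2 CPM has a prior count of 2. The test was run on simulated data with 200 genes changed and no difference between animals. That check therefore does not cover the differences between animals in these data. Alternatives were DESeq2 1.42.0, RLE, other filters, no covariate, the eye as a block, other sets of libraries, and leaving out each eye. Python 3.11.15 was used for descriptions and figures.

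The labels tie libraries to animal and eye. Deviations from location means over the 1000 most variable genes correlated at 0.561 within an eye, 0.555 between fellow eyes and -0.559 between animals in retina, and at 0.387, 0.403 and -0.395 in RPE/choroid. The location means include both animals, so the negative values follow from the positive ones. Values within an eye and between fellow eyes were alike, so the pairing by eye rests on the labels.

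Genes named are the 9 members, their fixed partners, up to 3 other called chemokine genes per direction and comparison with at least 1 CPM, and the 3 most alike genes, of which some are given. CCL11 was added after its value was seen. Members and lists were chosen with earlier results of these data known. Gene lengths were not used here, so levels are not compared between genes. The result of 1 listed gene is not reported here.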

Additional observations from a re-analysis of the deposited data

Results flagged for a closer look

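The CXCL14 change from periphery to fovea/macula differed between the tissues by -4.71 on the log2 scale, by the test of the interaction (adjusted p 3.58e-07), with all 4 RPE/choroid eyes higher and all 4 retina eyes lower at the fovea/macula. The fit gave -4.19 for CCR2 (adjusted p 0.0262), but this is no measure of a tissue difference, since CCR2 was too low to be tested in retina, where all 4 libraries of the fovea/macula are at 0.

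In 3 of 72 groups of 4 eyes, 1 eye stood apart from the others by Dixon's test at the 95% level, and chance flags about 1 in 20 groups. The 72 include CCR2 at the retinal fovea/macula, which could not be tested because all 4 eyes were at 0. Retinal CCL26 was low in eye 1 at the perimacula, with 0.525 CPM, and in eye 2 at the nasal location, with 0.618 CPM. Retinal CXCL14 at the perimacula was low in eye 4, with 19.2 CPM.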

How the results depend on the processing

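Of 113 tested results of the 9 genes, 66 were called, and 52 of these stayed called in every alternative that could be fitted. These include all calls between the tissues (9, 8, 8 and 9 genes at fovea/macula, perimacula, nasal location and periphery), those of CCR2 among them. The losses thus fell on the comparisons between locations and on CCR2 in the tissue difference. Between fovea/macula and periphery, CCR1, CCR6, CCL26, CXCL12 and CXCL14 kept their calls throughout in retina. In RPE/choroid CCR1, CCL26, CXCL12 and CXCL14 did. No called direction reversed in 1265 alternative values. In 48 of them a call was lost and in 6 gained, and 13 losses came from omitting the animal as covariate. Without it, the genes called fell to 5 in retina between fovea/macula and periphery, 1 between fovea/macula and perimacula and 2 between perimacula and periphery. They fell to 3 in RPE/choroid between perimacula and periphery. The other chemokine genes called in RPE/choroid between fovea/macula and periphery fell from 10 to 4. Calls over all genes fell too, from 10312, 5416 and 7733 to 9043, 3651 and 6131 of 15380 in retina, in that order. In RPE/choroid they fell from 5471 to 4016 and from 6911 to 5303 of 15674. Leaving out each eye in turn gave 1 to 2 genes in retina between fovea/macula and perimacula, 3 to 5 in RPE/choroid between perimacula and periphery, and 1 to 2 in the tissue difference. Over all genes those fits called 3225 to 4800, 3314 to 4972 and 5774 to 6083, against 5416, 5471 and 7130 with all eyes. Between fovea/macula and perimacula of RPE/choroid, DESeq2 and a fit of only these groups each called 1, and called 314 of 15674 and 357 of 15215 genes in all against 7 in the fit reported. The CCR2 call in the tissue difference was lost without eye 3 (adjusted p 0.102) or eye 4 (adjusted p 0.0683). A minimum of 10 counts in every library left fewer genes to test, with 5 called between the tissues at the perimacula and 5 nasally, and 1 in the tissue difference. Over all genes, that filter left 13083 to test, of which 10265, 10207 and 6475 were called. The eye as a block lost 2 calls, CXCR4 in retina between fovea/macula and perimacula (adjusted p 0.0555) and CCL2 in RPE/choroid between perimacula and periphery (adjusted p 0.0795), and changed no other call of these genes. Mean CPM under RLE or plain scaling moved by less than the SD between eyes in all 144 comparisons. Depth limits CCR2, CCL2, CCL8 and CCR6 in retina most. The causes were not tested.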
